A study of Mus musculus with 8 samples.

Results

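The genes described here encode enzymes that write or erase histone methyl and acetyl marks, the coactivators and scaffolds that carry such enzymes to chromatin, and the sirtuins. They were chosen by name, as a list of 47 genes matched by symbol in the array annotation, and 45 of them had a probe set naming that gene alone, out of 19934 genes measured. Suv39h1 and Ash1l had no such probe set and were not analysed here. Expression was measured in whole liver from male C57Bl/6 mice aged 10 to 12 weeks, on normal chow with 12 h of light and 12 h of dark, sampled at zeitgeber time 10, which is 10 h after lights on. The mutant group, NS-DADm, has 4 samples with the deacetylase-activating domain (DAD) mutated in both NCOR and SMRT; through this domain each corepressor binds HDAC3 and turns on its activity. The labels do not say in which cells the mutations are present, and the other 4 samples are wild type (WT). The question was which liver transcripts differ between the genotypes.

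Acetylation of histone tails is set by acetyltransferases such as Ep300 and Crebbp and by deacetylases, of which HDAC3 depends on NCOR or SMRT for its activity. Nuclear receptors exchange these corepressors for coactivators of the p160 family, Ncoa1, Ncoa2 and Ncoa3, which in turn bring in acetyltransferases. Sirtuins remove acyl groups in a reaction that consumes NAD, and histone methylation is balanced between methyltransferases that use S-adenosylmethionine and demethylases that use flavin or 2-oxoglutarate. In liver these enzymes act on genes of lipid, glucose and circadian metabolism.

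None of the 45 transcripts passed the test for a difference between genotypes. At an adjusted p under 0.05 (limma, Benjamini-Hochberg over all genes) 0 of 45 members were called, against 54 of 19934 genes, which is 0.271%. The smallest adjusted p among the members was 0.289, for the acetyltransferase gene Ep300. At an unadjusted p under 0.05, 7 of the 45 qualified, 1 higher and 6 lower in NS-DADm samples, where the background was 9.33% of all genes, 3.72% higher and 5.6% lower. The log2 fold change, NS-DADm minus WT, lay between -0.22 (Sirt3) and 0.22 (Kdm5b), with a median of -0.04 over the members and -0.01 over all genes. Of the 45, 31 lay below 0, against 55.7% of all genes. The absolute log2 fold change was at least 0.2 in 2 members (7.3% of all genes) and at least 0.1 in 14 (25.4%). At looser adjusted thresholds of 0.1 and 0.2 the count of members was still 0, where 0.547% and 1.25% of all genes were called.

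The 95% confidence intervals show how large a change these samples allow for each gene, without adjustment for the number of genes. They rest on the spread between samples, which may be technical. The widest reach was in Kdm5b, up to 1.35-fold, and the narrowest in Ncoa2, 1.08-fold in either direction. In 31 of the 45 members the whole interval lay within 1.2-fold either way. The intervals of 70.7% of all genes lay within 1.2-fold. The median SD within a group was 0.089 for the members and 0.101 for all genes on the log2 scale. All but 1 of the 45 had a mean level at or above the median of all genes, 7.59, the exception being the H3K9 methyltransferase gene Suv39h2 which averaged 6.11 ± 0.08 in WT samples and 6.07 ± 0.08 in mutant samples (log2 intensity, SD, n = 4 each).

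**Figure D1:**
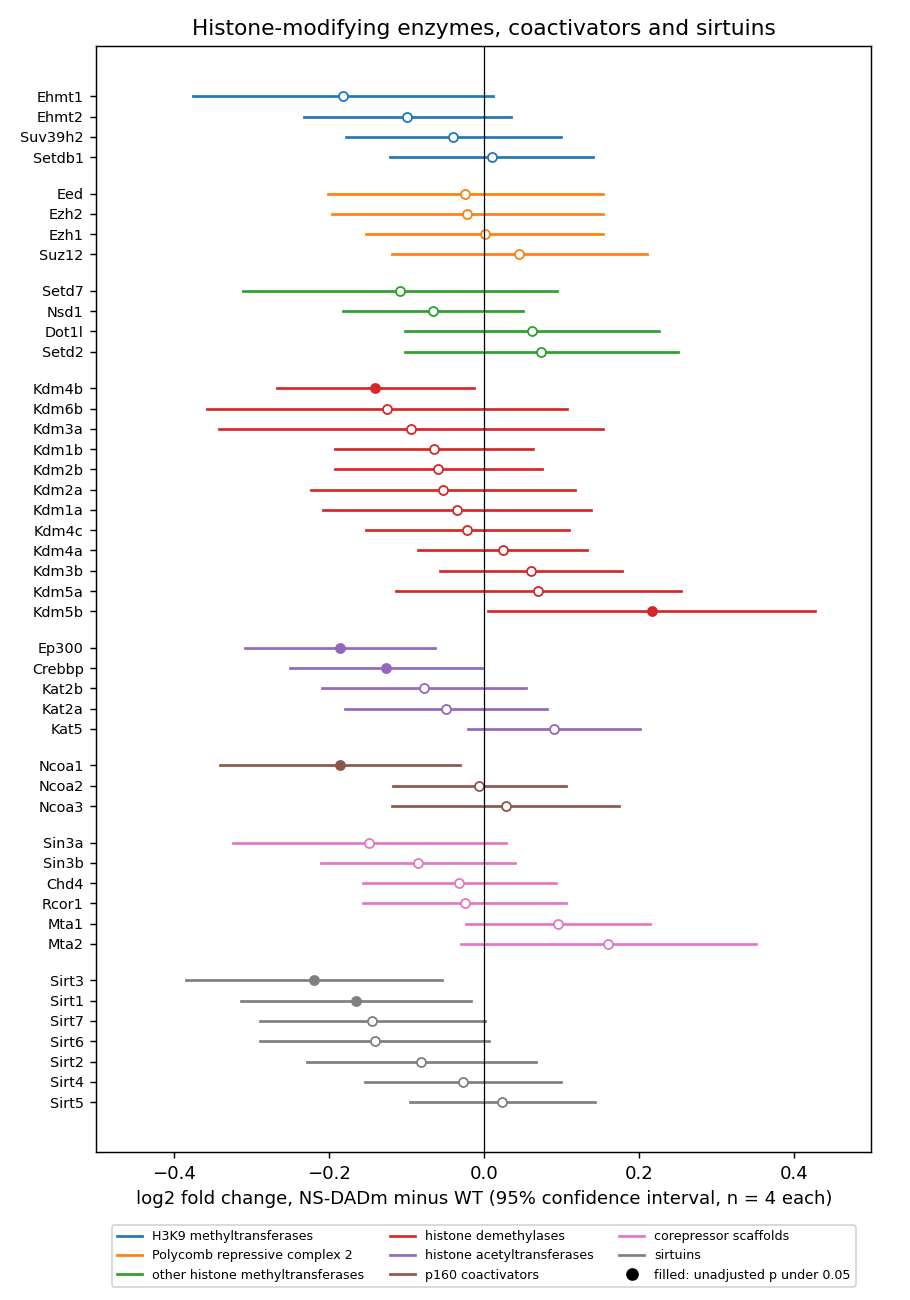
Log2 fold change of each of the 45 measured members, NS-DADm minus WT, with its 95% confidence interval on the x axis and genes on the y axis, coloured by role; filled points have an unadjusted p under 0.05. Values run from -0.22 in Sirt3 to 0.22 in Kdm5b, and 7 points are filled.

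The hepatocyte markers showed the samples to be liver, with array means of 13.43 to 13.45 for the 8 genes in NS-DADm and 13.42 to 13.45 in WT. The 14 markers of sinusoidal endothelial cells all lay below 0, against 55.7% of all genes, with a median log2 fold change of -0.31. At an unadjusted p under 0.05, 10 of the 14 were lower, against 5.6% of all genes. In 4 of the 14 every NS-DADm sample was below every WT sample, against 3.83% of all genes. Of the 14, 1, Dnase1l3, passed the test, where 0.11% of all genes were called lower. The mean level of the 14 was 9.08 to 9.69 in NS-DADm and 9.60 to 9.77 in WT samples. NS-DADm replicate 1 was the lowest of the 8 arrays for endothelial (9.08), Kupffer (8.58) and stellate (8.72) markers, and 14 of 45 members, 31.1%, had their lowest value there, against 13.6% of all genes. In the lists for Kupffer, stellate, cholangiocyte, T and NK, B, neutrophil, erythroid and cycling cells 0 genes passed the test, and the list medians lay between -0.13 (stellate cells) and 0.11. NS-DADm replicate 4 was the highest of the 8 arrays for Kupffer (9.52), stellate (9.33), T and NK (6.55), B (6.39), neutrophil (6.24) and cycling cell (7.26) markers, and for the last of these the other 7 arrays lay between 6.83 and 6.96. In whole liver, fewer cells of a type and less RNA per cell cannot be told apart, and the part of these marker shifts in the members' values was not tested beyond leaving out each array. The labels do not state that each sample is a separate animal, so the p-values reflect sample-to-sample spread alone, and that spread may be technical. No transcript of the mutated corepressor genes was analysed here. The transcript of HDAC3, the enzyme they activate, averaged 10.68 ± 0.11 (SD) in the 4 WT samples and 10.76 ± 0.10 in the 4 mutant samples (log2 fold change 0.09, limma adjusted p = 0.828).

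Among the acetyltransferases Ep300 (Entrez Gene 328572), which acetylates histones at enhancers and promoters, was at 9.95, 9.89, 9.84 and 9.93 in NS-DADm replicates 1 to 4 and at 10.01, 10.15, 10.06 and 10.14 in WT replicates 1 to 4 (log2 intensity). The groups did not overlap, and every NS-DADm sample was below every WT sample. The difference was -0.19 (SE 0.055, 95% confidence interval -0.31 to -0.06), or 1.14-fold lower, with an unadjusted p of 0.00669 and a limma adjusted p of 0.289. Its close relative Crebbp (Entrez Gene 12914) was at 10.65, 10.57, 10.54 and 10.66 in NS-DADm and at 10.66, 10.79, 10.70 and 10.78 in WT samples. NS-DADm replicates 1 and 4 lay next to WT replicate 1, and the groups overlapped narrowly. The difference of -0.13 had a limma adjusted p of 0.525. The GCN5-related enzymes Kat2a and Kat2b were at log2 fold changes of -0.05 and -0.08 with overlapping groups.

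Kat5, the TIP60 acetyltransferase of the NuA4 complex, was the member of this group with a value above 0. It was at 8.52, 8.40, 8.43 and 8.43 in NS-DADm against 8.34, 8.34, 8.38 and 8.35 in WT samples, with no overlap. The difference was small, 0.09 (95% confidence interval -0.02 to 0.20, limma adjusted p = 0.646). In all, the groups did not overlap in 4 members, Ep300, Sirt3, Ncoa1 and Kat5, of which Kat5 was higher and the other 3 lower in NS-DADm. Over all genes this held for 5.63%, with 1.8% higher and 3.83% lower. The count was 11 without NS-DADm replicate 4 (11.3% of all genes), 10 without WT replicate 1 (8.53%) and 11 without WT replicate 3 (8.05%). It was 2 when each array's median was subtracted (4.46%).

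Among the p160 coactivators, Ncoa1 (Entrez Gene 17977), also known as SRC-1, was at 8.78, 8.74, 8.88 and 8.89 in NS-DADm and at 8.93, 9.01, 8.91 and 9.18 in WT samples. The highest NS-DADm sample and the lowest WT sample were nearly equal. The difference was -0.19 (SE 0.070, 95% confidence interval -0.34 to -0.03, limma adjusted p = 0.427). The other two members of the family were at -0.01 (Ncoa2) and 0.03 (Ncoa3), both with overlapping groups. The interval of Ncoa2, -0.12 to 0.11, had the narrowest reach of all members, at most 1.08-fold.

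Of the 7 sirtuins 6 had values below 0, with a median log2 fold change of -0.14, and 2 were lower at an unadjusted p under 0.05. Over all genes 55.7% lay below 0 and 5.6% were lower at an unadjusted p under 0.05. Sirt3 (Entrez Gene 64384), the main deacetylase of the mitochondrial matrix, was at 10.18, 10.30, 10.38 and 10.49 in NS-DADm and at 10.69, 10.50, 10.54 and 10.49 in WT samples. NS-DADm replicate 4 and WT replicate 4 were level to 2 decimals. The difference was -0.22 (SE 0.075, 95% confidence interval -0.38 to -0.05), or 1.16-fold lower, with a limma adjusted p of 0.365. Leaving out 1 array at a time moved it between -0.27 and -0.17, with a smallest adjusted p of 0.158. The other mitochondrial sirtuins, Sirt4 and the desuccinylase Sirt5, were at -0.03 and 0.02.

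Sirt1 (Entrez Gene 93759), a nuclear deacetylase of histones and of transcription factors of fasting metabolism, was at 8.79, 8.78, 8.82 and 8.94 in NS-DADm and at 8.95, 9.05, 8.87 and 9.11 in WT samples. WT replicate 3 fell below NS-DADm replicate 4, so the groups overlapped. The difference was -0.16 (SE 0.067, limma adjusted p = 0.467). Sirt6, a chromatin deacetylase, was at 8.43, 8.51, 8.54 and 8.37 in NS-DADm against 8.46, 8.65, 8.59 and 8.71 in WT samples. Sirt7, which is found mainly in the nucleolus, was at 8.86, 9.08, 8.99 and 9.10 against 9.18, 9.21, 9.09 and 9.11. In both the groups overlapped, at -0.14 each (limma adjusted p = 0.566 and 0.541). Sirt2, mostly cytoplasmic, was at -0.08.

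**Figure D2:**
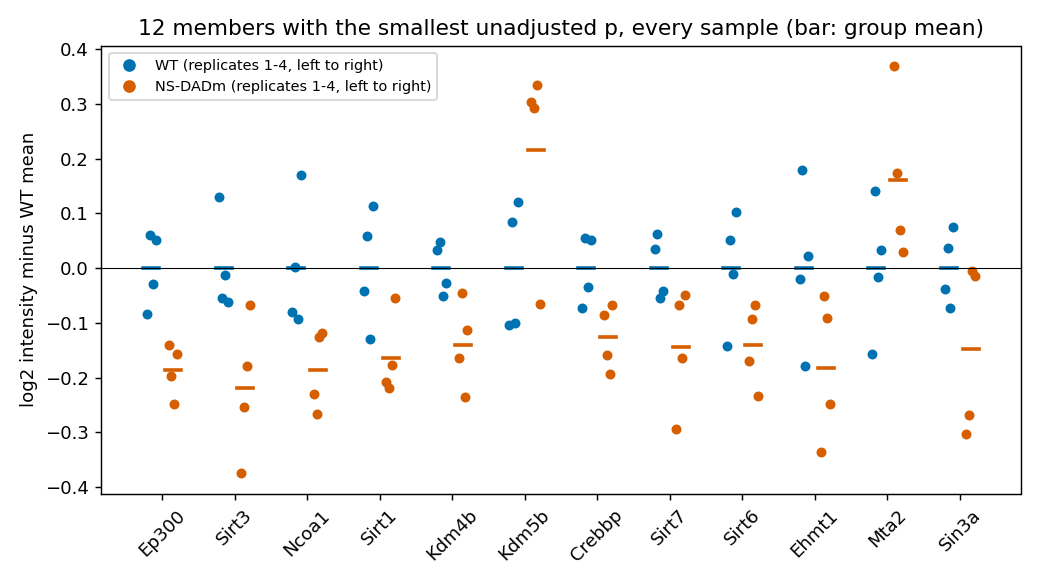
Log2 intensity minus the WT mean (y axis) in each of the 8 samples for the 12 members with the smallest unadjusted p (x axis); points are samples and bars group means of 4. In Ep300, Sirt3 and Ncoa1 no NS-DADm point reaches a WT point, while in Kdm5b NS-DADm replicate 4 lies among the WT samples.

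The sequence directly upstream of 4 genes, those with the smallest unadjusted p that have a RefSeq promoter window, shows a property common to many members. Each is given 5′ to 3′ on the gene's strand in GRCm38.p6, cut to bases outside any annotated gene, with GGGCGG or its reverse complement, the GC box bound by Sp1-type factors, in capitals. The stretches are chr15:81585964-81586208 on the plus strand for Ep300, and on the minus strand chr7:140882310-140882393 for Sirt3, chr12:4477207-4477432 for Ncoa1 and chr10:63339036-63339285 for Sirt1.
Ep300: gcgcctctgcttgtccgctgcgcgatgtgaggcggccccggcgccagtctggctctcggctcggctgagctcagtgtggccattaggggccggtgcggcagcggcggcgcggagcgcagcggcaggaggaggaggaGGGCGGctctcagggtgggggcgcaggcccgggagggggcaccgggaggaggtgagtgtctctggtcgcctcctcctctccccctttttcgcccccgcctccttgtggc
Sirt3: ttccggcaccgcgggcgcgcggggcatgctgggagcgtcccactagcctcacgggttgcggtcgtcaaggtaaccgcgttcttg
Ncoa1: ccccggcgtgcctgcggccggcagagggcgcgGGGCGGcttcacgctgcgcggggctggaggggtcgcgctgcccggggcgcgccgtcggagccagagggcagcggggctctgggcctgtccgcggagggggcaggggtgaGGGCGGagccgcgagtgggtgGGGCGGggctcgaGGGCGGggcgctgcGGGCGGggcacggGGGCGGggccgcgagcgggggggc
Sirt1: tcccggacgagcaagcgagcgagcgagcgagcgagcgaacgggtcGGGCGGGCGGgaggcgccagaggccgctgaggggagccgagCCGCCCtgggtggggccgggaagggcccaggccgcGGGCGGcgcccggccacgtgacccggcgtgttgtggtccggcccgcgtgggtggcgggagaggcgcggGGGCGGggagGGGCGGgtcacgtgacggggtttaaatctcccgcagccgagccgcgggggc
Ncoa1 and Sirt1 hold 6 GC boxes each in these stretches, Ep300 holds 1, and the 84 bases between Sirt3 and its divergent neighbour Psmd13 hold 0 but contain 12 CpG dinucleotides. RefSeq windows matched 37 of the 45 members, with 50 windows of 250 bases before an annotated start. These had a median of 19.5 CpG dinucleotides, against 6 over all 32851 windows. GGGCGG, on either strand, was in 66% of the members' windows and 32.7% of all windows. AGGTCA, the half-site of many nuclear receptors, searched on both strands, was in 8% of the members' windows (Ehmt1, Kdm1a, Kdm4c and Sirt5) and 14% of all. CACGTG, the E-box of clock factors, which reads the same on both strands, was in 10% and 6.02%. CCAAT, on either strand, was in 34% and 33.8%. The set of all windows was not matched to the members by expression level or CpG count, and some members entered with several windows. A match describes the letters only.

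Among the 12 demethylases 1 was higher and 1 lower at an unadjusted p under 0.05, and the median log2 fold change was -0.04. Kdm5b (Entrez Gene 75605), which removes methyl groups from histone H3 lysine 4, was at 8.87, 8.86, 8.90 and 8.50 in NS-DADm and at 8.46, 8.65, 8.47 and 8.69 in WT samples. In NS-DADm, 3 samples were above all WT samples and replicate 4 was inside the WT range. The difference was 0.22 (SE 0.096, 95% confidence interval 0.01 to 0.43, limma adjusted p = 0.520), and 0.31 without NS-DADm replicate 4 (adjusted p = 0.105). Kdm4b (Entrez Gene 193796), which acts on methylated lysine 9 and 36 of histone H3, was at 8.78, 8.90, 8.71 and 8.83 in NS-DADm and at 8.98, 8.995, 8.90 and 8.92 in WT samples. NS-DADm replicate 2 touched WT replicate 3, and the others lay apart, at a difference of -0.14 (SE 0.057, limma adjusted p = 0.472).

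The other 10 demethylases lay between -0.13 (Kdm6b, an H3 lysine 27 demethylase) and 0.07 (Kdm5a), all with overlapping groups. Kdm6b varied widely within the mutants, at 8.53, 8.77, 8.77 and 9.07, against 8.97, 9.04, 8.89 and 8.75 in WT samples. Kdm3a, an H3 lysine 9 demethylase, had the widest spread of these in WT, from 8.40 to 9.004, and was at -0.09. The flavin-dependent demethylases Kdm1a (LSD1) and Kdm1b were at -0.03 and -0.06, and the CpG-binding Kdm2a and Kdm2b at -0.05 and -0.06.

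None of the 12 methyltransferase and Polycomb members measured had an unadjusted p under 0.05, against 9.33% of all genes. The 4 measured genes of Polycomb repressive complex 2, which methylates H3 lysine 27, lay between -0.02 and 0.05: the catalytic Ezh1 (0.00) and Ezh2 (-0.02), the reader subunit Eed (-0.02) and the core subunit Suz12 (0.05). Suz12, the largest of these differences, was at 9.70, 9.59, 9.66 and 9.60 in NS-DADm and at 9.45, 9.61, 9.51 and 9.79 in WT samples, where the mutants lay inside the wider WT range. Their smallest limma adjusted p was 0.953, and their intervals reached at most 1.16-fold. Among those that methylate H3 lysine 9, Ehmt1 (GLP) was at 8.42, 8.70, 8.66 and 8.51 in NS-DADm and at 8.73, 8.93, 8.58 and 8.78 in WT samples. WT replicate 3 lay inside the NS-DADm range, and the difference was -0.18 (SE 0.087, limma adjusted p = 0.572). Its partner Ehmt2 (G9a) was at -0.10, Suv39h2 at -0.04 and Setdb1, which works with KRAB zinc finger repressors, at 0.01. The others were the H3 lysine 36 enzymes Setd2 (0.07) and Nsd1 (-0.07), the H3 lysine 79 enzyme Dot1l (0.06), and Setd7 (-0.11), which methylates H3 lysine 4 and other proteins. Setd7 was at 7.80, 7.94, 7.92 and 8.23 in NS-DADm and at 8.05, 8.02, 8.004 and 8.24 in WT samples, with replicate 4 the highest of each group and the ranges overlapping.

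Of the corepressor scaffolds outside the NCOR and SMRT complex, 4 lay below 0 and 2 above, where 55.7% of all genes lay below 0. Mta2, a subunit of the NuRD deacetylase complex, was at 10.20, 10.01, 9.90 and 9.86 in NS-DADm and at 9.68, 9.97, 9.82 and 9.87 in WT samples. NS-DADm replicates 1 and 2 were above all WT samples and the other 2 were within the WT range. The difference was 0.16 (SE 0.086, limma adjusted p = 0.626), and its relative Mta1 was at 0.10. Sin3a, the scaffold of a deacetylase complex built on HDAC1 and HDAC2, was at 8.43, 8.47, 8.73 and 8.72 in NS-DADm and at 8.70, 8.77, 8.66 and 8.81 in WT samples. NS-DADm replicates 1 and 2 were low and the other 2 lay inside the WT range, at a difference of -0.15 (SE 0.080, limma adjusted p = 0.627). Sin3b was at -0.08, the NuRD remodeller Chd4 at -0.03 and the LSD1 partner Rcor1 at -0.02. Of the 33 members outside the 12 with the smallest p, all but Kat5 had overlapping groups, with log2 fold changes from -0.13 to 0.10.

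Comparing related genes within each array removes shifts that move both genes of an array equally. For 16 pairs of related members the difference of log2 intensities was formed in each sample, and the genotypes were compared by a two-sided exact permutation test, which cannot give less than 0.0286 with 4 against 4 samples. In 4 pairs, 25% of the 16, the groups did not overlap. The pairs were chosen with earlier results of these data known, and the share over other pairs of genes was not computed. The groups of Ep300 and of Sirt3, which enter these pairs, also did not overlap when each gene was taken alone. Sirt3 minus Sirt5 was 2.10, 2.17, 2.22 and 2.23 in NS-DADm and 2.52, 2.39, 2.41 and 2.37 in WT samples, a difference between genotypes of -0.24. Every mutant value lay below every WT value. Sirt3 minus Sirt4 was 2.46 ± 0.08 in WT and 2.27 ± 0.11 in mutant samples (SD, n = 4 each), a difference of -0.19. Kdm4a minus Kdm4b was -0.05 ± 0.05 in WT and 0.11 ± 0.07 in mutant samples, a difference of 0.16. Ep300 minus Crebbp, whose transcripts moved closely together from array to array, was -0.643 ± 0.008 in WT and -0.703 ± 0.021 in mutant samples, a difference of -0.06. Each of the 4 had the smallest p the test can give, 0.0286, and an adjusted p of 0.114 over the 16 pairs, so none passed. Sirt3 enters 2 of the 4, which are therefore not independent. In the other 12 pairs the groups overlapped; among them the genotypes differed by 0.02 in Ezh1 minus Ezh2 and by 0.03 in Kat2a minus Kat2b (exact p = 0.743 and 0.714).

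**Figure D3:**
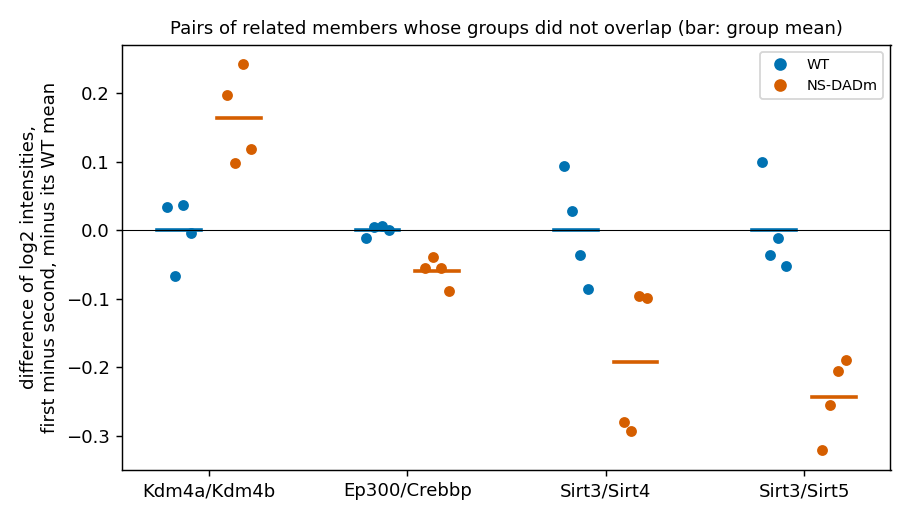
Difference of log2 intensities between the 2 genes of a pair, first minus second, minus its WT mean (y axis), in each sample for the 4 pairs whose groups did not overlap (x axis); bars are group means of 4. All 4 exact permutation p-values are 0.0286, or 0.114 adjusted over 16 pairs.

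The mean level of the members also varied from array to array. Their mean deviation from their own 8-array means was 0.07 in WT replicate 4 and 0.06 in WT replicate 2, against -0.02 in WT replicate 1 and -0.04 in WT replicate 3, and -0.04, -0.03, -0.02 and 0.01 in NS-DADm replicates 1 to 4. WT replicate 4 held the highest value of 18 of the 45 members, 40%, but of 15.1% of all genes. WT replicates 2 and 4 also had the widest distributions of all arrays, with SDs of 1.94 and 1.95 over all genes, against 1.87 to 1.93 in the other 6. The SD of each array over all probe sets, 2.02 to 2.09, was added to the fit as a covariate. In that fit 13 of the 45 members had an unadjusted p under 0.05, against 13.5% of all genes. All 13 were lower, and 0 were called. The share of all genes that were lower in this fit was not computed. The part of the array spread in the members' values was not tested beyond this. Without NS-DADm replicate 4, the array highest for 6 of the marker lists, 12 of the 45 had an unadjusted p under 0.05, against 11.7% of all genes. Of the 12, 10 were lower and 2 higher, and the lower and higher shares of all genes were not computed there. At that threshold 2 members qualified without NS-DADm replicate 1 (6.53% of all genes), 4 without NS-DADm replicate 3 (7.39%) and 4 without WT replicate 4 (12%). Subtracting each array's median left 3 (8.05%).

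**Figure D4:**
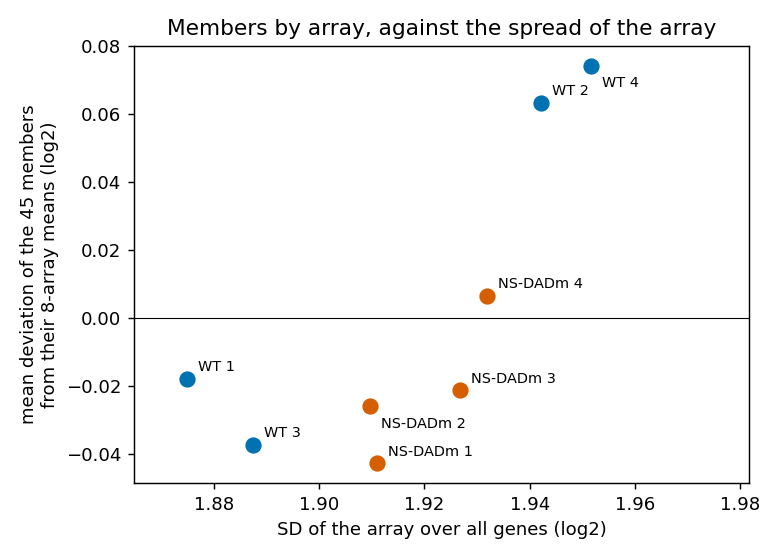
Mean deviation of the 45 members from their 8-array means (y axis, log2) against the SD of each array over all genes (x axis, log2), 1 point per sample. WT replicates 2 and 4 stand highest on both axes, and WT replicates 1 and 3 have the lowest SDs.

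Genes that work with these enzymes were taken from 11 further lists, of 248 genes, of which 237 were measured. Their log2 fold changes had a median of -0.02. At an adjusted p under 0.05, 0 of the 237 were higher and 1 was lower, against 0.161% and 0.11% of all genes. The 1 was Setdb2, a SET-domain gene related to Setdb1, which fell from 10.14 ± 0.25 to 8.85 ± 0.11 (log2 fold change -1.28, SE 0.11, limma adjusted p = 0.00309). It was the 1 of 30 further histone methyltransferases called, against 0.271% of all genes. In that list 1 gene was higher and 6, Setdb2 included, were lower at an unadjusted p under 0.05 (3.72% and 5.6% of all genes). The median there was -0.02. Setdb1 was at 0.01. Setdb2 was at 9.01, 8.84, 8.83 and 8.73 in NS-DADm and at 10.30, 10.23, 10.26 and 9.76 in WT samples, with a wide gap between the groups.

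Of the other lists none had a member past the test. The counts at an unadjusted p under 0.05 given here for these lists stand against 3.72% higher and 5.6% lower over all genes. Among 29 subunits of Polycomb complexes and COMPASS, 6 were lower and 0 higher at an unadjusted p under 0.05, with a median of -0.05. Phf1, an accessory subunit of Polycomb repressive complex 2 that binds methylated H3 lysine 36, came nearest to a call. It was at 8.63, 8.62, 8.65 and 8.71 in NS-DADm and at 8.96, 8.94, 8.89 and 8.95 in WT samples, with a wide gap between the groups. The difference was -0.28 (SE 0.049, limma adjusted p = 0.0538). Over the alternatives its limma adjusted p ran from 0.0301 to 0.201. It passed among genes at or above the median level (adjusted p = 0.0409), with array weights (0.0301), with the array SD as covariate (0.032) and without NS-DADm replicate 4 (0.0460). It did not pass after median subtraction (0.122), with the replicate block (0.0982), with trended and robust variances (0.0919) or with any of the other 7 arrays left out (0.0891 to 0.201). Pcgf2, a Polycomb repressive complex 1 gene, was at -0.28 (adjusted p = 0.397), and at -0.18 without NS-DADm replicate 1.

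Of 26 nuclear receptor coregulators 4 were lower and 0 higher at an unadjusted p under 0.05. Ppargc1b, a coactivator of genes of mitochondria and lipid synthesis, was at -0.42 (limma adjusted p = 0.341) and Cited2, which binds Ep300 and Crebbp, at -0.26 (adjusted p = 0.553), which was -0.13 without NS-DADm replicate 1. Of 25 further acetyltransferases and adaptors 3 were lower and 1 higher. Among them Sgf29, a methyl-lysine reader of the SAGA complex, was at -0.30 and Supt3, of the same complex, at 0.30 (adjusted p = 0.289 and 0.451); Supt3 was at 0.16 without WT replicate 1. Of 24 SIN3, NuRD and CoREST subunits 2 were lower and 1 higher, and Chd3 was at 0.21 and Phf21a, which binds unmethylated H3 lysine 4, at -0.21 (adjusted p = 0.399 and 0.430). Of 14 further demethylases 1 was lower and 0 higher; Phf8 was at 0.18 (0.10 without NS-DADm replicate 1) and Riox2 at 0.16 (0.11 without WT replicate 1). Of 15 readers of acetyl and methyl marks 3 were lower and 0 higher, and Brd1 was at -0.15 and Brd3 at -0.14. Of 16 SWI/SNF genes 1 was lower and 1 higher, and Smarce1 was at 0.14 and Arid1b at -0.13. Of 10 genes of DNA methylation 1 was lower and 1 higher. Tet2, which oxidises 5-methylcytosine, was at 0.27 (adjusted p = 0.175) and Mbd1 at -0.21.

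The enzymes that supply cofactors were also measured. Of 23 genes that make or handle S-adenosylmethionine, acetyl-CoA and 2-oxoglutarate, 5 were higher and 0 lower at an unadjusted p under 0.05, against 3.72% higher and 5.6% lower over all genes. Of the 23, 6 lay below 0, against 55.7% of all genes, and the median was 0.05. Acss2, which makes acetyl-CoA from acetate, was at 11.65, 11.50, 11.61 and 10.92 in NS-DADm and at 10.72, 11.03, 11.09 and 10.92 in WT samples. NS-DADm replicate 4 lay within the WT range and the other 3 above it. The difference was 0.48 (SE 0.15, limma adjusted p = 0.306), and 0.65 without NS-DADm replicate 4, which passed the test (adjusted p = 0.0142). Without NS-DADm replicate 1, 2 or 3 it was 0.40, 0.45 and 0.42 (adjusted p = 0.649, 0.533 and 0.559), and with a WT array left out it did not pass either. Acly, which makes acetyl-CoA from citrate, was at 0.47 (adjusted p = 0.386), and at 0.31 without NS-DADm replicate 1. Of 25 genes of NAD synthesis and use, 2 were higher and 2 lower at an unadjusted p under 0.05. Nnmt, which methylates nicotinamide, was at 0.27 (adjusted p = 0.399; 0.18 without NS-DADm replicate 4) and Parp2, a poly(ADP-ribose) polymerase, at 0.22 (adjusted p = 0.313).

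**Figure D5:**
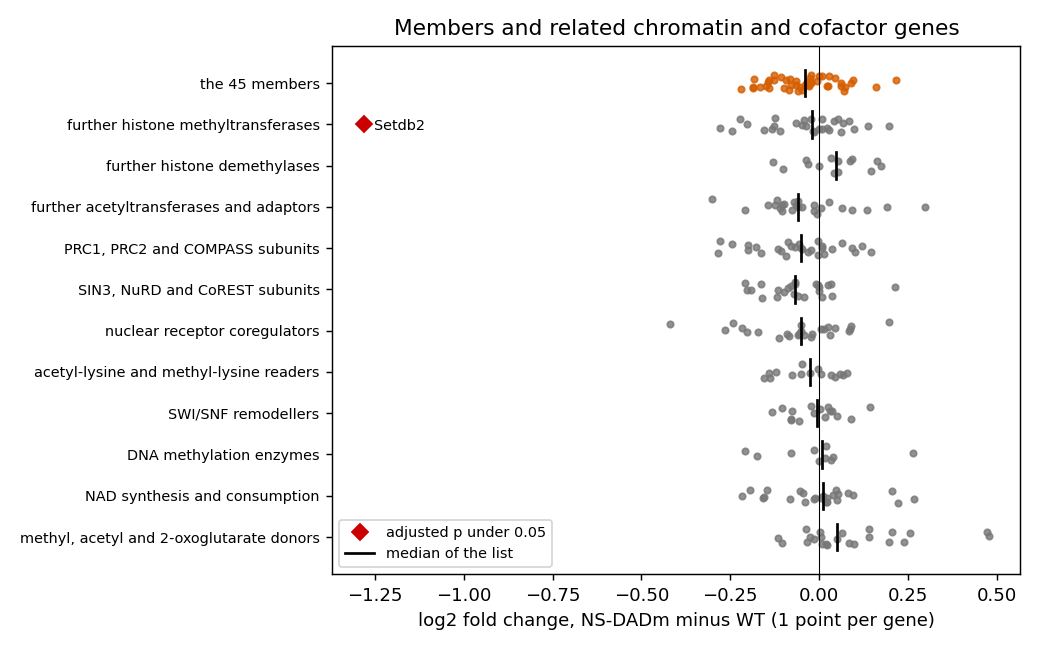
Log2 fold change, NS-DADm minus WT (x axis), of the 45 members and of the measured genes of 11 related lists (y axis), 1 point per gene, with list medians as black bars and genes at an adjusted p under 0.05 as red diamonds. Setdb2 at -1.28 is the 1 red diamond.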

How the data were processed

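Total RNA of 8 liver samples was amplified with a whole-transcript kit, labelled with biotin and hybridised to Affymetrix arrays, per the labels' protocols. The log2 values used were deposited by the authors, and the submitters' processing notes name RMA and Partek, with no order, version or setting (not given in the sources used here). This scale was read from the values, 3.43 to 14.37. Array medians over 28270 probe sets were 7.39 to 7.50. No detection calls were used, so how far a gene's signal exceeded background is unknown.

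Of the probe sets, 21780 named 1 gene in the platform annotation, 1617 named several and 4873 none. Symbols were updated by Entrez identifier. Each gene took its single-gene probe set with the highest mean (Eed and Setd2 had 2 each). No filter or pseudocount was used. The comparison used limma 3.58.1 under R 4.3.3 (lmFit and eBayes, two-sided, Benjamini-Hochberg over 19934 genes), tested on simulated data. Fold changes are 2 to the power of a log2 difference.

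The members, lists and pairs were chosen with earlier results of these data known. Every member is accounted for. Values in every sample were given for the 12 members with the smallest unadjusted p and for others the results turn on; of each further list, genes past the test or the 2 with the largest absolute log2 fold change. Levels of different genes were set against each other only as a rank beside the median of all genes and as within-array pair differences, which were compared between genotypes and not read as relative abundance. Promoter windows came from RefSeq. Alternatives were the mean of probe sets, separate probe sets, 2 filters on low values, quantile normalization, median subtraction, trended and robust variances, array weights, replicate block, array SD as covariate, looser thresholds and each array left out. Tables and figures used Python 3.11.15, pandas 2.3.3 and matplotlib 3.10.9.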

Additional observations from a re-analysis of the deposited data

Results flagged for a closer look

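In 132 sets of 4 values (both groups of the 45 members and of the named genes of the other lists), 6 had a sample far from the other 3, where chance alone gives about 1 in 20. Among the members, Ehmt2 was at 9.08 in NS-DADm replicate 1, against 9.24 to 9.27 in the other 3. Kdm5b was at 8.50 in NS-DADm replicate 4, against 8.86 to 8.90. Sirt4 was at 8.01 in WT replicate 2, against 8.12 to 8.13. Of the other lists, Setdb2 was at 9.76 in WT replicate 4, against 10.23 to 10.30. Supt3 was at 8.31 in WT replicate 1, against 8.83 to 8.91. Cited2 was at 8.99 in NS-DADm replicate 1, against 9.49 to 9.56.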

How the results depend on the processing

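The count of members called was 0 under all alternatives tried, including adjusted p under 0.1 and 0.2. The smallest adjusted p over 10 processing alternatives was 0.114 (Ep300, array SD as covariate), and 0.105 with an array left out (Kdm5b, without NS-DADm replicate 4). The median of the members ran from -0.07 to -0.02 with an array left out. All genes called numbered 109 with array weights, 105 with the replicate block, 109 and 250 at adjusted p under 0.1 and 0.2, and 13 to 126 with an array left out. The further lists had 2 called genes with the filter at the median level, with array weights and with the array SD as covariate, and 1 to 3 with an array left out. Members whose groups did not overlap numbered 2 after median subtraction and 4 to 11 with an array left out. Pairs whose groups did not overlap numbered 3 with quantile normalization and 4 to 5 with an array left out.

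Signs turned for 12 members in 30 of 808 refits, and the cause was not tested. Among them Kdm3a, at -0.09 in the main fit, turned only without WT replicate 4. Eed was at 0.017 as the mean of its probe sets and 0.017 with array weights, which gave 0.0095 for Kdm1a and 0.0014 for Ncoa2. With the array SD as covariate Setdb1 was at -0.0056 and Ezh1 at -0.013. With an array left out the ranges were -0.10 to 0.026 (Eed), -0.033 to 0.061 (Ezh1), -0.060 to 0.047 (Ezh2), -0.10 to 0.014 (Kdm1a), -0.19 to 0.012 (Kdm3a), -0.060 to 0.016 (Kdm4c), -0.028 to 0.010 (Ncoa2), -0.0045 to 0.079 (Ncoa3), -0.063 to 0.0070 (Rcor1), -0.019 to 0.042 (Setdb1), -0.0087 to 0.050 (Sirt5) and -0.00068 to 0.11 (Suz12).

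Whether samples with the same replicate number belong together is not known. Their deviations from the group means correlated at 0.15, 0.05, -0.10 and 0.25 for replicates 1 to 4. Samples with different numbers correlated at -0.32 to 0.26. Deviations within a group depend on each other, so these correlations cannot decide the question. The replicate block called 105 genes against 54 and changed no member's call.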
